A study of Mus musculus with 3 samples.

Results

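Igf2, H19, Dlk1, Meg3, Peg3, Mest, Cdkn1c, Plagl1, Grb10 and Ndn are imprinted genes that act in fetal growth. They were chosen by name, and all 10 were found among the 19165 genes of the deposited expression table. Dorsal skin of male C57BL/6 mice had been profiled cell by cell with a droplet method that reads the 3' ends of transcripts. There was 1 library for each of embryonic days E13.5 and E16.5 and for the day of birth (P0). These stages stand for hair follicle induction, organogenesis and cytodifferentiation. Each library holds skin of several animals that cannot be told apart. All 3 groups share strain and sex, and the labels name no mutation or treatment. E13.5 and E16.5 skin was digested with trypsin and P0 skin with collagenase IV, so stage, library and, for P0, digestion cannot be told apart. With 1 library per stage, differences have no replicate check and were not tested. Intervals are 95% exact intervals that cover counting error only.

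An imprinted gene is transcribed mainly from the copy of a single parent, as set by methylation laid down in the germ line. Igf2, Dlk1, Peg3, Mest, Plagl1 and Ndn are known as paternally expressed genes, and H19, Meg3 and Cdkn1c as maternally expressed genes, whereas the expressed copy of Grb10 depends on the tissue. Many imprinted genes are high in the fetus and are shut down together after birth, when growth slows. Single-cell 3' counts do not show which parental copy a transcript came from, so imprinting itself was not measured here.

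Both long noncoding RNAs lie beside the ligand gene with which they share control regions. In GRCm38 (GENCODE vM21), Igf2 lies at chr7:142650766-142666816 on the minus strand and H19 at chr7:142575529-142578143 on the same strand, with 72622 bases between them. Dlk1 lies at chr12:109452823-109463336 and Meg3 at chr12:109541001-109571726, both on the plus strand, with 77664 bases between them. Peg3 (chr7:6703892-6730431), Cdkn1c (chr7:143458339-143461050) and the single-exon gene Ndn (chr7:62346569-62350262) are also on chromosome 7. Mest is at chr6:30723547-30748465, Plagl1 at chr10:13060504-13131694 and Grb10 at chr11:11930508-12038683. H19 and Meg3 are annotated as lincRNA and the other 8 as protein coding. Igf2 overlaps Igf2os, Meg3 overlaps Gm26906, and Mest overlaps Copg2 and Gm44296, in each case on the opposite strand.

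Promoter windows of 250 bases upstream of a start site were taken from RefSeq (GRCm38.p6), which gave 15 windows for 8 of the 10 genes. H19 and Cdkn1c had no entry. Windows were searched on both strands for GGGGCCCC, the letters that the zinc finger protein encoded by Plagl1 is known to bind, and for TATAAA. GGGGCCCC was present in 1 of the 15 windows, that of Peg3, and in 292 of all 32851 windows (0.889%). TATAAA was present in 1 of the 15, the first Meg3 window, and in 12.4% of all windows. The members' windows held 0 to 40 CG pairs with a median of 8, against a median of 6 over all windows. The Dlk1 and Meg3 windows are shown because their genes had closely similar patterns over cell groups, and the Peg3 window because it holds the match. Capitals mark the searched letters on either strand, which overlap in the Meg3 window, and the Dlk1 window holds neither. The Dlk1 window (chr12:109452573-109452822, plus strand) holds 8 CG pairs, the Meg3 window (chr12:109540746-109540995, plus strand) 10 and the Peg3 window (chr7:6730420-6730669, minus strand) 8.
Dlk1: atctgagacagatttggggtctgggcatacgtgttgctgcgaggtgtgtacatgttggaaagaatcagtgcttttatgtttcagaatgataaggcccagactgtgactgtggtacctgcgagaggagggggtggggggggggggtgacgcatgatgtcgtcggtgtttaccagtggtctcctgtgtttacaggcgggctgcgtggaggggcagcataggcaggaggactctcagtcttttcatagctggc
Meg3: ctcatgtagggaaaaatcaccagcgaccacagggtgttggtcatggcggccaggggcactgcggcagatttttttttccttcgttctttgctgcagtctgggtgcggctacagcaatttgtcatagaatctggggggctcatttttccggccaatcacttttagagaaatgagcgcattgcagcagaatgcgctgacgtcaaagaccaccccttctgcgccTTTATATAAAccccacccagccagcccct
Peg3: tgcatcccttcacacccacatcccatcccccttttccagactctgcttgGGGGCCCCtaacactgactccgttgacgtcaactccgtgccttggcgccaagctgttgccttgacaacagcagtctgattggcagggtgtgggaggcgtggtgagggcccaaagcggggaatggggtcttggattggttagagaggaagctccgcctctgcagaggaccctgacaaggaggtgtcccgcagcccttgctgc
A match is a description of these letters and not a site of binding.

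The libraries held 5962, 5208 and 5065 cells with median depths of 7066.5, 11021 and 6797 unique molecular identifiers (UMIs, each of which marks a captured transcript) per cell. Between 32 and 44 cell barcodes were shared by pairs of libraries. Each library was clustered alone with the members and the other imprinted genes left out, and clusters were named from marker genes such as Col1a1 and Lum for dermal and Krt14 and Krt15 for epithelial cells. This gave 2110, 2692 and 2437 dermal-like cells and 514, 953 and 1369 epithelial-like cells at E13.5, E16.5 and P0. At E13.5 the library labelled skin also held 596 muscle-like, 423 neural-like and 375 cartilage or tendon-like cells. A level is the share of a gene among all UMIs of a group in the usual unit CPM (10000 CPM is 1%), and a difference is the log2 ratio after 10 was added to each CPM. Counts below are of genes that differed at least 2-fold on this scale, with at least 50 UMIs over both groups. Because levels are shares of all UMIs, fewer positive cells and less RNA per cell cannot be told apart in a sum.

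Transcripts of dermal markers were most widespread at E13.5. Erythroid-like cells at that stage carried all 10 dermal markers at 73.6% of their summed dermal-like level, and the members at 53.3% to 98.7% of theirs. Immune-like cells carried the dermal markers at 40.5%, 11.9% and 6.21% of the dermal-like level at E13.5, E16.5 and P0, and the members at medians of 42.1%, 11.7% and 10.3%. Levels of members in immune-like cells thus moved with the dermal markers, and whether these reads came from free RNA, doublets or mixed clusters was not tested. In epithelial-like cells the dermal markers stood at 32.0%, 11.5% and 5.68%. At E13.5, 45.9% of epithelial-like and 28.0% of dermal-like cells lay in sub-clusters that markers of another lineage led. A sub-cluster was counted so where its 10 leading genes held more markers of another lineage than of its own. A single gene could be enough, as with Fabp7 in 281 dermal-like cells at E13.5. The dermal-like sub-clusters counted so at E16.5 each held a single such gene, Acta2, Kcnj8, Hbb-y or Hba-a2, so many of their cells may be plain dermal cells.

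Over all cells, all 10 genes were lower at P0 than at E13.5, and for each of them except Meg3 the log2 difference was larger in the later step. The 10 genes together took 1.27%, 0.844% and 0.363% of all UMIs in order of stage. At E16.5 against E13.5, 0 of 10 were at least 2-fold lower (background 1.86% of all genes tested). At P0 against E16.5, 7 of 10 were at least 2-fold lower, against 1.75% of all genes. The median log2 difference of the members was -0.62 for the earlier step and -1.28 for the later, against -0.05 and -0.07 for all genes. The plot of levels by stage shows that the direction was shared but that each gene kept its own set of high cell groups.

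**Figure D1:**
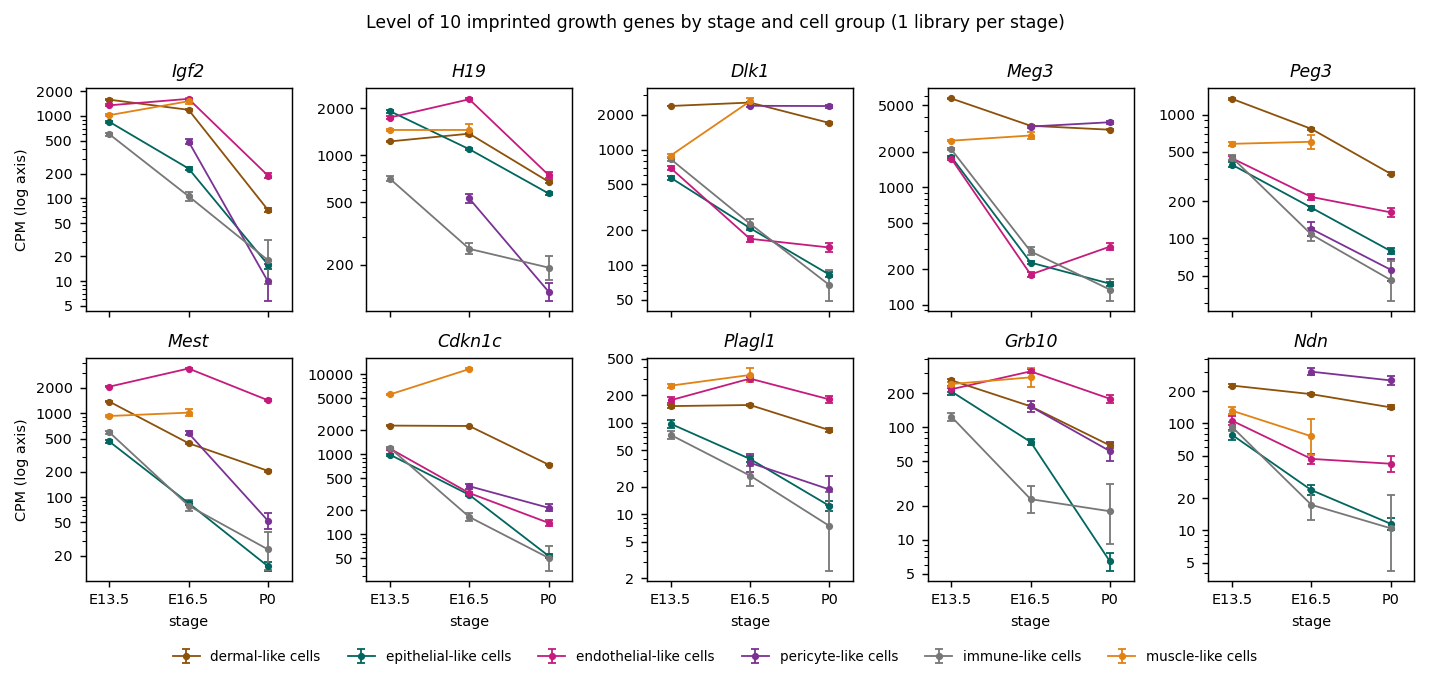
Level of each gene (CPM, log axis) by stage in 6 cell groups, with 1 library per stage. Points are sums over the cells of a group and bars are 95% exact Poisson intervals. Igf2 in dermal-like cells stood at 1573, 1185 and 72.9 CPM, whereas Mest was highest in endothelial-like cells at all 3 stages among these groups.

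Igf2, the fetal insulin-like growth factor, had the largest difference of the 10 genes between E16.5 and P0. In all cells it stood at 1229.9 CPM (E13.5), 844 (E16.5) and 46.3 CPM (P0). In dermal-like cells it was 1573 CPM (E13.5), 1185 (E16.5) and 72.9 CPM (P0), so most of the difference lay in the later step, where log2 was -3.85 (95% interval -3.92 to -3.77). Epithelial-like cells held 848 CPM (E13.5), 230.4 (E16.5) and 15.9 CPM (P0), with log2 differences of -1.84 and -3.22. Endothelial-like cells held 1343 CPM (E13.5), 1608 (E16.5) and 189.8 CPM (P0). At E16.5, 44 of these cells, in a cluster led by Ccl21a, Mmrn1 and Prox1, known genes of lymphatic vessels, held 4264 CPM. A cluster of 19 cells led by Gja4 held 2625 CPM and the 288 cells led by Fabp4 and Gpihbp1 1076. At P0, 12 cells led by Ccl21a held 1055 CPM and the other 255 held 122. Endothelial-like cells stood 1.27 on the log2 scale above dermal-like cells at P0, and 0.67 without the 12 cells, an alternative chosen after seeing the data. Pericyte-like cells differed most in the later step, from 489 to 9.92 CPM (log2 -4.65), where the P0 level rests on 17 UMIs.

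The share of cells with an Igf2 UMI followed the same order. After each cell was thinned to 3500 UMIs, 93.0%, 74.3% and 15.6% (14.2 to 17.1) of dermal-like cells had a UMI, in order of stage. Without thinning the shares were 98.2%, 88.8% and 23.8%. In immune-like cells, taken as a background, the thinned shares were 75.9%, 22.1% and 6.06% (1.68 to 14.8). The unthinned immune-like shares were 87.8%, 42.6% and 9.09%. Median depths before thinning were 8320.5, 11097.5 and 5993 UMIs in dermal-like cells and 6009.5, 10224 and 8220.5 in immune-like cells. At P0 the dermal-like share was higher than this background, which rests on 66 cells, but their intervals overlapped. The epithelial-like share of 4.38% (3.36 to 5.61) was not higher.

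H19, the noncoding RNA next to Igf2, was retained to a greater extent. In dermal-like cells it was 1224 CPM (E13.5), 1371 (E16.5) and 677 CPM (P0), with log2 differences of 0.16 and -1.01. Epithelial-like cells held 1909 CPM (E13.5), 1091 (E16.5) and 569 CPM (P0) and endothelial-like cells 1739, 2275 and 747 CPM. The endothelial-like clusters led by Ccl21a again held more, with 1878, 7479.5 and 3452 CPM, against 1567, 1379.95 and 535 in the rest of these cells. H19 was the only one of the 10 genes that was higher in epithelial-like than in dermal-like cells at any stage, at E13.5 (log2 dermal over epithelial -0.64, 95% interval -0.67 to -0.60), by less than 2-fold. Thinned shares of dermal-like cells with an H19 UMI were 89.5%, 83.1% and 63.2%, against 77.9%, 43.8% and 28.8% of immune-like cells. Without thinning the dermal-like shares were 96.8%, 94.9% and 72.8%, and the immune-like ones 90.7%, 77.0% and 57.6%.

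The balance within the pair therefore moved toward H19. UMIs from 3' ends do not scale with transcript length, so the share of Igf2 among Igf2 and H19 UMIs is given as a ratio of counts. In dermal-like cells Igf2 made up 56.2% (55.8 to 56.7), 46.4% (46.0 to 46.7) and 9.72% (9.2 to 10.3) of the pair in order of stage. Epithelial-like cells had 30.8%, 17.4% and 2.71%, the lowest share among dermal-like, epithelial-like, endothelial-like, pericyte-like and muscle-like cells at each stage. Endothelial-like cells changed little before birth, 43.6% and 41.4%, and kept 20.3% (18.8 to 21.8) at P0. The intervals of these 3 groups did not overlap at P0. The plot of pair shares sets this beside Dlk1 and Meg3, which did not move in a single direction.

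**Figure D2:**
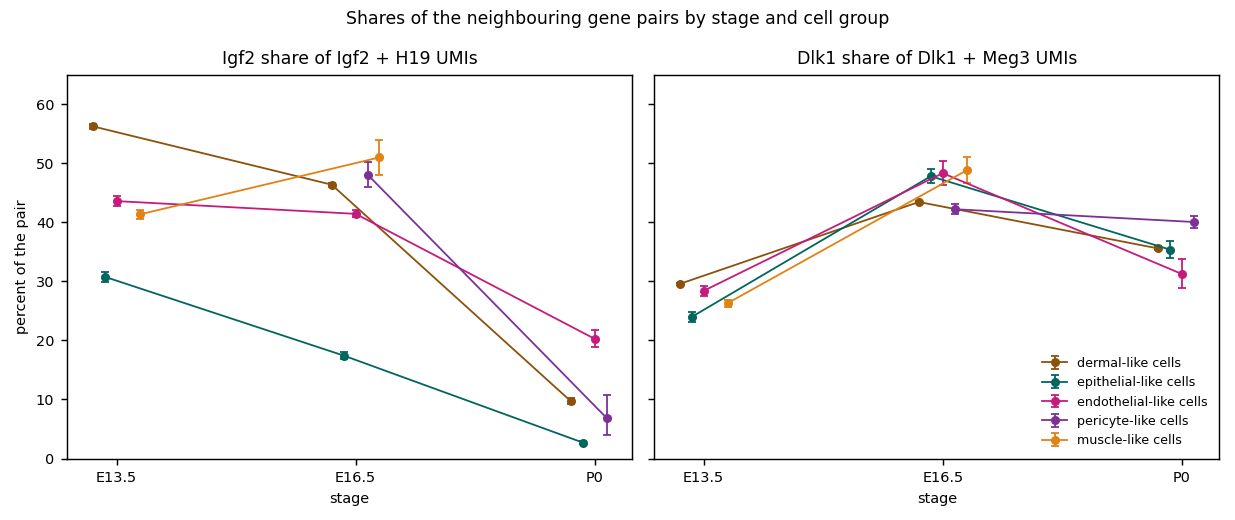
Percent of the UMIs of each neighbouring pair that came from Igf2 (left) or Dlk1 (right), by stage, in 5 cell groups. Bars are 95% exact binomial intervals. The Igf2 share was lower at P0 than at E16.5 in every group measured at both, whereas the Dlk1 share was 29.6%, 43.4% and 35.6% in dermal-like cells.

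Dlk1, a transmembrane ligand of the Notch family that holds back fat cell differentiation, and Meg3, the noncoding RNA next to it, stayed within 2-fold of the preceding stage in dermal-like sums. In dermal-like cells Dlk1 was 2392 CPM (E13.5), 2561 (E16.5) and 1706 CPM (P0) and Meg3 was 5698 CPM (E13.5), 3337 (E16.5) and 3089 CPM (P0). The log2 difference of Meg3 from E16.5 to P0 was -0.11 (95% interval -0.13 to -0.10). The Dlk1 sum at P0 was uneven, since 189 deep dermis-like cells held 12054 of its 27206 UMIs (44.3%). The median of dermal-like sub-clusters not led by other lineages went from 1492 to 451 CPM for Dlk1 and from 2794 to 3579 for Meg3. Pericyte-like cells kept both genes at a similar level, with 2400.4 and 2389 CPM of Dlk1 and 3287 and 3577 of Meg3 at E16.5 and P0. In epithelial-like cells Dlk1 was 572 CPM (E13.5), 209 (E16.5) and 82.7 CPM (P0), and Meg3 was 1812 CPM (E13.5), 228 (E16.5) and 151 CPM (P0). Much of this lay in sub-clusters led by genes of another lineage, which held 57.0% and 73.8% of the epithelial-like Dlk1 UMIs and 69.0% and 74.9% of the Meg3 UMIs at the later stages. Without them Dlk1 was 340.2 CPM (E13.5), 114 (E16.5) and 31.5 CPM (P0), and Meg3 1252 CPM (E13.5), 89.7 (E16.5) and 55.1 CPM (P0). The E13.5 values still include an unnamed sub-cluster of 61 cells led by Dkk2 and Figf. It held 546 of the 967 remaining Dlk1 UMIs and 1687 of the 3559 Meg3 UMIs. Dermal markers made up 0.50% of its UMIs, against 0.053% to 0.132% in the other sub-clusters kept. The Meg3 step from E13.5 to E16.5 was -2.93 in epithelial-like, -3.20 in endothelial-like and -2.84 in immune-like cells. The dermal markers in these groups were also lower at E16.5, and their part in the step was not tested.

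Endothelial-like Meg3 was 181 CPM at E16.5 and 312 at P0, a log2 difference of 0.76 (95% interval 0.64 to 0.87) in the opposite direction to the other members there. At a clustering resolution of 0.5 the difference was 3.24, with 196 further cells at P0 that had been dermal-like, 151 of them condensate or papilla-like, and held 5202 CPM of Meg3. Schwann-like cells also had more Meg3 at P0, 1646 against 1125 CPM (log2 0.55). Thinned shares of dermal-like cells with a UMI were 99.3%, 97.7% and 98.4% for Meg3 and 99.5%, 93.9% and 62.2% for Dlk1. Immune-like cells had 87.1%, 24.5% and 22.7% for Meg3 and 81.6%, 34.6% and 16.7% for Dlk1. Without thinning the dermal-like shares at P0 were 99.5% and 71.6%, and the immune-like ones 37.9% and 40.9%. Meg3 thus stayed detectable in nearly every dermal-like cell, whereas Dlk1 was detected in fewer of them at P0.

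Cdkn1c, the cyclin-dependent kinase inhibitor p57, was highest in muscle-like cells among the groups compared before birth. It stood at 5620.4 CPM at E13.5 and 11668 at E16.5 there, the former over clusters at 4293 and 8634 CPM and the latter over 31 cells. In dermal-like cells it was 2291 CPM (E13.5), 2264 (E16.5) and 744 CPM (P0), with no difference beyond counting error at E16.5 (log2 -0.02, 95% interval -0.03 to 0.00) and a log2 difference of -1.59 (95% interval -1.62 to -1.56) at P0. Epithelial-like cells held 991, 312 and 53.7 CPM, with -1.64 and -2.34 on the log2 scale. Endothelial-like cells held 1181, 328 and 139 CPM. Their later step of -1.18 became 0.03 at a clustering resolution of 0.5, where the endothelial-like group at P0 held 463 cells in place of 267.

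Grb10, an adaptor that binds insulin and insulin-like growth factor receptors and restrains growth, was lower after both steps in dermal-like cells. It was 260.4 CPM (E13.5), 153 (E16.5) and 68.8 CPM (P0), with log2 differences of -0.73 and -1.05. In epithelial-like cells it reached 6.43 CPM at P0 (log2 -2.35, 95% interval -2.48 to -2.22 against E16.5). Endothelial-like cells held 217, 313 and 179 CPM, more than the dermal-like, epithelial-like, pericyte-like and immune-like groups at E16.5 and P0. Mest, which encodes a hydrolase-like protein, was also highest there. Its endothelial-like levels were 2075 CPM (E13.5), 3412 (E16.5) and 1431 CPM (P0), above the dermal-like levels of 1378, 439 and 206 CPM at each stage. The endothelial-like excess was 0.59, 2.93 and 2.74 on the log2 scale.

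Mest was the gene that differed most between E13.5 and E16.5 in dermal-like cells, at -1.63 (95% interval -1.66 to -1.60) on the log2 scale, and the only member past 2-fold in that step. It was detected after thinning in 99.8%, 99.4% and 92.5% of endothelial-like cells. In dermal-like cells the shares were 96.2%, 54.7% and 32.7%, and in immune-like cells 78.1%, 23.6% and 12.1%. Without thinning, endothelial-like cells had 96.3% and immune-like cells 19.7% at P0. Median depths were 9713 and 8220.5 UMIs. Endothelial-like cells thus kept Mest in nearly all cells across birth.

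Plagl1, a zinc finger transcription factor known to act on other imprinted genes, was 151 CPM (E13.5), 156 (E16.5) and 82.9 CPM (P0) in dermal-like cells and did not differ beyond counting error in the earlier step (log2 0.04, 95% interval -0.02 to 0.10). Endothelial-like cells held 176, 302 and 179 CPM and muscle-like cells 253 and 331 CPM before birth. Peg3, a zinc finger protein, was 1338 CPM (E13.5), 766 (E16.5) and 333 CPM (P0) in dermal-like cells, with -0.80 and -1.18 on the log2 scale. It was higher in dermal-like than in epithelial-like, endothelial-like, pericyte-like, muscle-like and immune-like cells at each stage at which they were measured. Ndn, a MAGE family protein that restrains proliferation, differed least between E16.5 and P0 in dermal-like cells after Meg3. It was 225 CPM (E13.5), 187 (E16.5) and 141 CPM (P0) in dermal-like cells, and pericyte-like cells held more, 304 and 252 CPM.

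Counted by group, the earlier step differed more often outside the dermis than within it. At E16.5 against E13.5, 1 of 10 genes was at least 2-fold lower in dermal-like cells (background 1.91%), 9 of 10 in epithelial-like cells (4.42%), 5 of 10 in endothelial-like cells (3.13%) and 10 of 10 in immune-like cells (5.35%). With a fold of 1.5 the dermal-like count was 4 of 10. In muscle-like cells 2 of 10, Dlk1 and Cdkn1c, were at least 2-fold higher (background 1.34%). The dermal markers stood at 32.0% of the dermal-like level in epithelial-like, 33.8% in endothelial-like and 40.5% in immune-like cells at E13.5, and at 11.5%, 7.74% and 11.9% at E16.5. The part of this difference in the counts was not tested. The immune-like group at E13.5 was also uneven. Its clusters of 289, 120 and 171 cells held Igf2 at 952, 660 and 211 CPM, against 101 and 120 CPM in its clusters at E16.5. Mest, Plagl1 and Grb10 were higher at E16.5 in endothelial-like cells, although the dermal markers there were lower. Without the clusters led by Ccl21a their levels were 2299, 241 and 252 CPM in the earlier library and 3684, 341 and 335 in the later. Igf2 and H19 were then 1233 and 1567 CPM in the earlier library and 1152 and 1379.95 in the later, so that their higher sums rested on those clusters.

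At P0 against E16.5, 6 of 10 genes were at least 2-fold lower in dermal-like cells, Igf2, H19, Peg3, Mest, Cdkn1c and Grb10 (background 2.67%). The counts were 7 of 10 in epithelial-like cells (1.9%), 4 of 10 in endothelial-like cells (2.43%) and 7 of the 9 measured in immune-like cells (6.06%). H19, Mest and Grb10 lay close to the threshold in dermal-like cells, with -1.01, -1.06 and -1.05. The dermal-like count was 3 of 10, Igf2, Peg3 and Cdkn1c, when sub-clusters led by genes of other lineages were left out. It was also 3 when clusters without a name were put back. In immune-like cells the count was 3 after thinning, and those P0 levels rest on 66 cells.

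**Figure D3:**
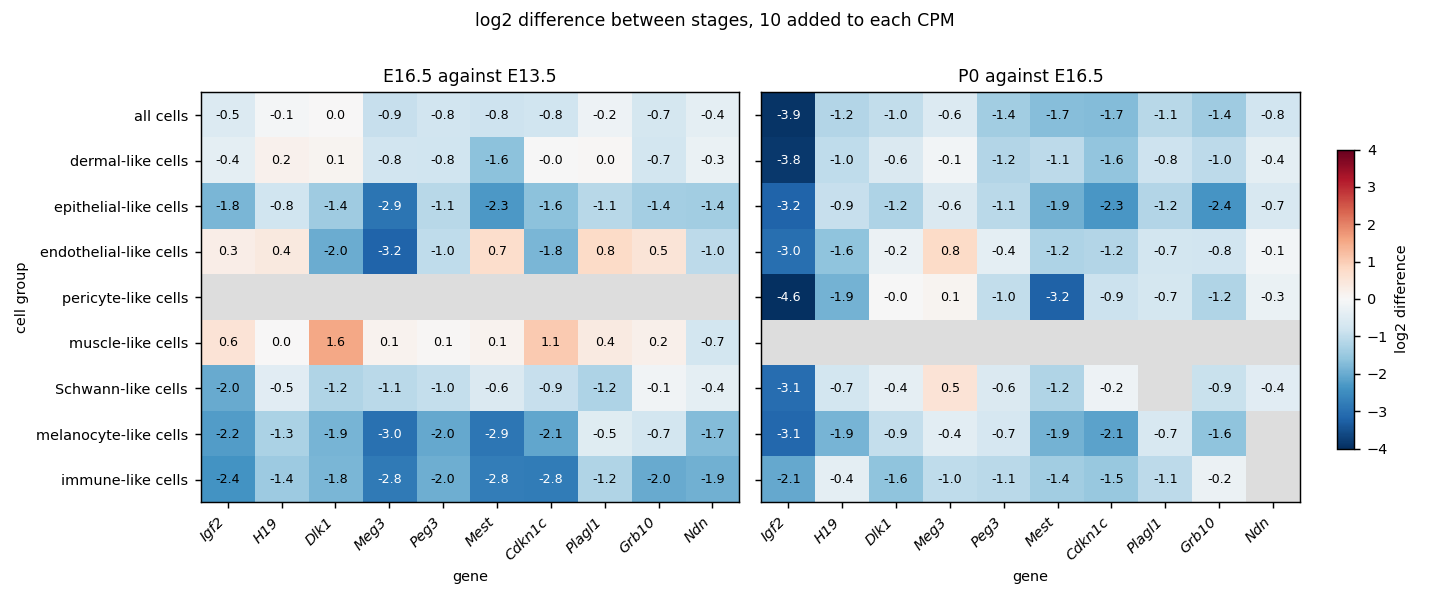
Log2 difference of each gene between stages after 10 was added to each CPM, by cell group, for E16.5 against E13.5 (left) and P0 against E16.5 (right). Grey cells have fewer than 50 UMIs over both stages or no group at 1 of them. Igf2 was lower at P0 in every group measured, from -2.06 in immune-like to -4.65 in pericyte-like cells.

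The genes separated dermis from epithelium more widely at later stages. At E13.5, 6 of 10 were at least 2-fold higher in dermal-like than in epithelial-like cells (background 3.47%), at E16.5 8 of 10 (7.12%) and at P0 9 of 10 (7.61%). Meg3 moved from 1.65 to 3.81 and 4.27 on the log2 scale, and Dlk1 from 2.05 to 3.55 and 4.21. Without sub-clusters led by other lineages, Meg3 stood at 2.22, 4.92 and 5.59, and Dlk1 at 2.83, 4.06 and 5.42. At E13.5 the epithelial side then still held the 61 cells led by Dkk2 and Figf, with 3507 CPM of Meg3 and 1135 of Dlk1. The other epithelial-like sub-clusters kept at that stage held 125 to 237 CPM of Dlk1, so the E13.5 differences were lowered by these 61 cells. Cdkn1c stood at 2.82 and 3.57 at the later stages. Peg3 varied less, with 1.74, 2.05 and 1.94, and H19 was the exception at P0 with 0.25. The share of dermal markers in epithelial-like cells was lower over the same stages, and its part was not tested.

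Endothelial-like cells differed from dermal-like cells in both directions at P0. Mest, Igf2, Grb10 and Plagl1 were at least 2-fold higher, 4 of 10 (background 7.99%), at 2.74, 1.27, 1.26 and 1.03 on the log2 scale. Without the 12 cells led by Ccl21a, 3 were, Mest, Grb10 and Plagl1, at 2.78, 1.31 and 1.11. Dlk1, Meg3, Cdkn1c and Ndn were at least 2-fold lower, 4 of 10 (background 6.54%), at -3.50, -3.27, -2.34 and -1.54. Pericyte-like cells had Dlk1 at 2389 against 1706 CPM and Meg3 at 3577 against 3089 in dermal-like cells at P0, both less than 2-fold, and Mest at 52.5 against 206 CPM.

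Within the dermis most of the genes stood at higher levels in cells with deep dermis markers, although no member took part in the clustering. Deep dermis-like cells, with Mfap5, Clec3b and Igfbp6 among their leading genes, numbered 38 at E16.5 and 189 at P0. At P0 the preadipocyte markers Lpl and Fabp4 were also among the leading genes. Agtr2, Fabp4, Igfbp7 and Col5a3 led both this P0 group and an unnamed sub-cluster of 153 cells at E16.5. Whether the named groups of the 2 stages hold the same kind of cell was not tested. The 10 genes took 3.63% of their UMIs at E16.5 and 1.95% at P0, against 1.24% and 0.712% in all dermal-like cells. Against other dermal-like cells, 8 of 10 were at least 2-fold higher at E16.5 (background 4.34%) and 6 of 10 at P0 (2.83%). Dlk1 stood at 8518 CPM at E16.5 and 8385 at P0 in these cells, against 2678 and 953 in other dermal-like cells. The log2 difference was 1.67 (95% interval 1.62 to 1.71) at E16.5 and 3.12 (95% interval 3.09 to 3.16) at P0.

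Plagl1 differed most at E16.5, with 1218 against 155 CPM (log2 2.90), and Dlk1, Mest and Igf2 at P0, with 3.12, 2.77 and 2.61. Igf2 still reached 317 CPM in deep dermis-like cells at P0, against 43.6 in other dermal-like cells. Peg3 was below 2-fold, at 0.01 (95% interval -0.14 to 0.16) and 0.59 (95% interval 0.48 to 0.70). A further 182 dermal-like cells at E16.5, in a sub-cluster led by C1qtnf3, Aspn and Angptl1 that was counted as led by another lineage and has no name here, held 8884 CPM of Dlk1, 9299.99 of Meg3 and 3317 of Igf2. An unnamed sub-cluster of 153 cells led by Acta2 and Akap12 held 5679 CPM of Dlk1, 5518 of Meg3 and 2747 of Igf2. High levels at E16.5 were therefore not particular to the named group. That group held from 1.54% (Peg3) to 11.2% (Plagl1) of the dermal-like UMIs of a member at this stage.

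Dermal condensate and papilla cells, which instruct the hair follicle, held less of several members than other dermal-like cells at E16.5. Low levels were not particular to them. An unnamed sub-cluster of 157 dermal-like cells led by Rrm2 and Ccne2 held 203 CPM of Igf2, 307 of H19 and 1666 of Meg3. Condensate or papilla-like cells numbered 413 at E16.5 and 153 at P0 in 2 sub-clusters each, of which 1 had Sox18, Bmp3, Bmp4 and Inhba among its leading genes. The 10 genes took 0.751% of their UMIs at E16.5, against 1.27% in other dermal-like cells, and 0.831% against 0.56% at P0, when the sum was no longer lower. Against other dermal-like cells, 6 of 10 genes were at least 2-fold lower at E16.5 (background 3.01%) and 3 of 10 at P0 (2.93%). Igf2 stood at 172 against 1279.5 CPM at E16.5 (log2 -2.83, 95% interval -2.94 to -2.72) and H19 at 318 against 1468 CPM (log2 -2.17). Meg3 was not lower as a sum. It was 3332 CPM in these cells at E16.5 and 5632 at P0, or 0.04 and 1.02 on the log2 scale. At E16.5 it was split, with 5024 CPM in the 212 cells led by Bmp3 and Sox18 and 1573 in the 201 led by Aqp1 and Foxd1, whereas both sub-clusters at P0 were high, with 5560.2 and 5822 CPM. Dlk1 therefore made up 22.6% and 15.5% of the Dlk1 and Meg3 UMIs of these cells, against 49.2% and 63.5% in deep dermis-like cells. A further 42 cells at P0 had 10 condensate or papilla markers high but no name, since genes of another class led them. They were counted among other dermal-like cells and held 4251 CPM of Meg3, 359 of Dlk1 and 196 of Cdkn1c.

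**Figure D4:**
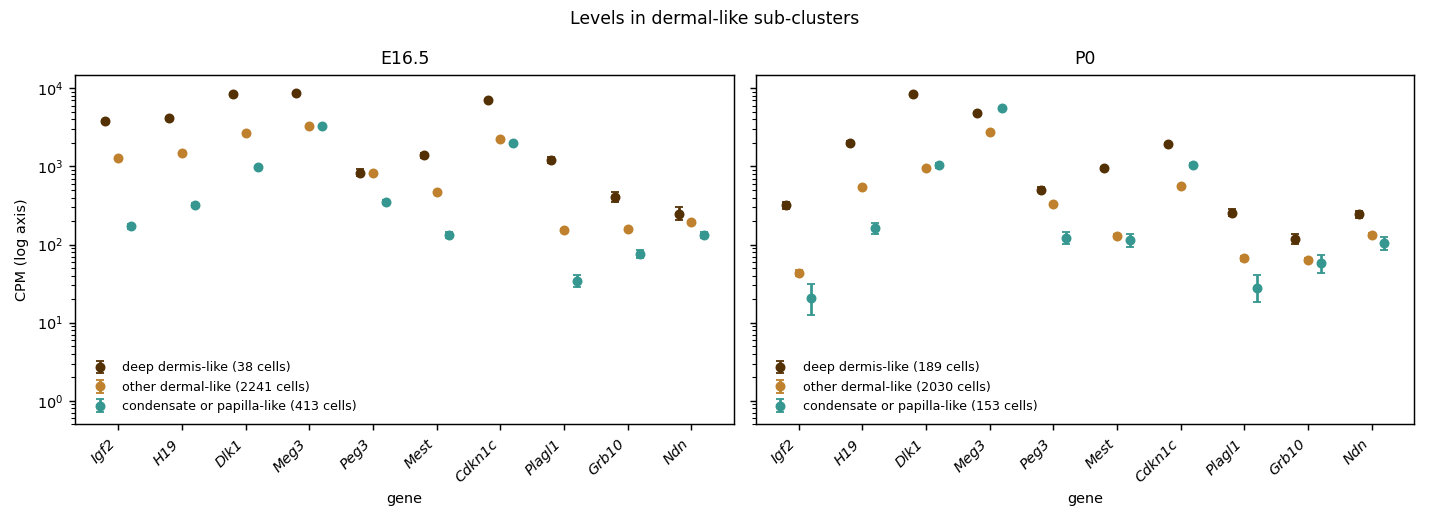
Level of each gene (CPM, log axis) in deep dermis-like, other dermal-like and condensate or papilla-like cells at E16.5 (left) and P0 (right). Bars are 95% exact Poisson intervals and most are smaller than the points. Deep dermis-like cells held the highest Igf2, H19, Dlk1, Mest, Cdkn1c and Plagl1 levels of the 3 groups at both stages.

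Levels also differed between sub-clusters led by cell cycle genes and some of the others, and the sub-clusters named here were chosen after their values were seen. At E13.5 Cdkn1c stood at 1263 CPM in 130 dermal-like cells led by Ube2c, Aurka and Cenpf and at 1107 in 214 cells led by histone genes, against 4776 in 151 cells led by Klf4, Adamts5 and Gata6. Peg3 did not follow this order, with 1556, 1721 and 1204 CPM in the same sub-clusters. Over dermal-like cells of E13.5, Pearson's r was 0.52 between Cdkn1c and Igf2 and -0.20 between Cdkn1c and Peg3, over 2110 cells of a single library. Between Cdkn1c and Peg3 r was positive at the later stages, 0.30 over 2692 cells and 0.23 over 2437 cells. Cdkn1c did not follow the cell cycle genes throughout. It was 3161 CPM in 58 cells at E13.5 led by Nppc and histone genes, and 848 CPM in 257 cells led by Calb1 and Slitrk6. The lowest of the dermal-like sub-clusters at E13.5 was 717 CPM. It held 86 cells with Cenpa, Cdc20 and Ccnb2, but also Calb1, among their leading genes. Over the sub-clusters of at least 20 cells not led by other lineages, Plagl1 ranged from 34.8 to 524 CPM at E13.5, 29.8 to 1218 at E16.5 and 11.2 to 255 at P0. Ndn ranged less, from 164 to 329, 128 to 266 and 80.3 to 244 CPM.

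In the epithelium at P0, H19 split the sub-clusters. It stood at 2922 CPM in 93 basal-like cells, a sub-cluster of which H19 was itself the leading gene, and at 1618 CPM in 86 suprabasal-like cells led by Stfa1 and Krt16. In 3 follicle-like sub-clusters of 149, 103 and 153 cells it stood at 38.5, 54.3 and 35.7 CPM. Low levels were not particular to these. Unnamed sub-clusters of 111, 92 and 115 cells held 40.3, 41.1 and 73.8 CPM, and an unnamed sub-cluster of 245 cells held 1096. Suprabasal-like cells led by Krt10 and Krt1 held 299 CPM over 54 cells. The other basal-like sub-cluster, of 51 cells led by Mylpf and Cdc20, held 99.2 CPM. Where H19 was highest, Igf2 stood at 73.6 CPM. At E16.5 the spread was smaller, 519 to 1360.4 CPM over 8 sub-clusters of at least 20 cells not led by another lineage.

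**Figure D5:**
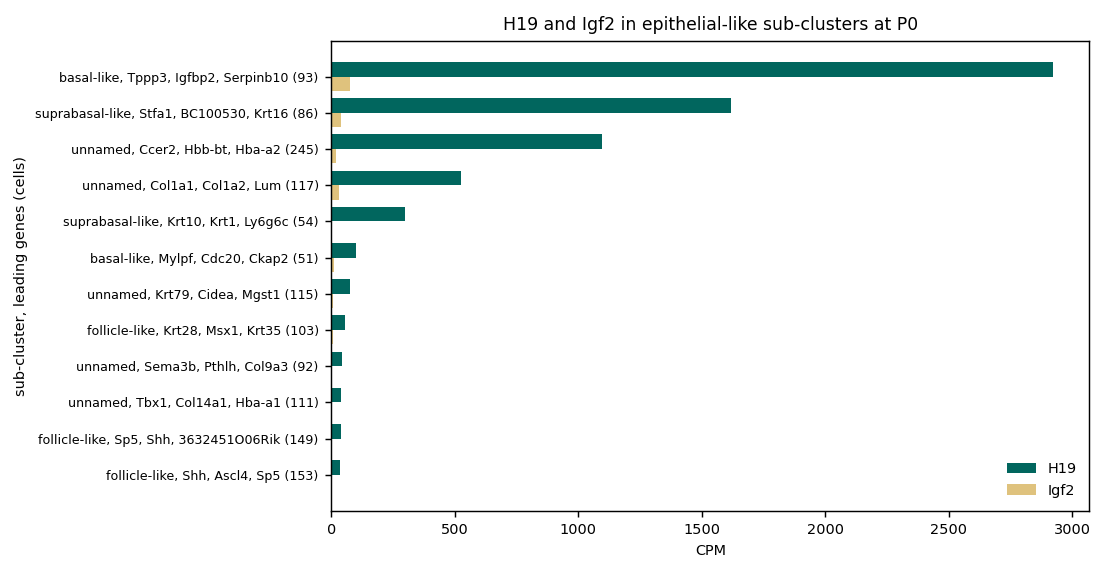
Level of H19 and Igf2 (CPM) in the epithelial-like sub-clusters at P0, named by leading genes other than the members, with the number of cells. Bars are sums over the cells of a sub-cluster in 1 library. H19 reached 2922 CPM in the top sub-cluster and was 35.7 CPM in the lowest, and Igf2 was 73.6 CPM at most.

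Against other epithelial-like cells at P0, the 680 of unnamed sub-clusters, follicle-like cells had 4 of 10 genes at least 2-fold lower (background 2.16%). These were H19 (-2.97, 95% interval -3.14 to -2.80 on the log2 scale), Meg3 (-1.92), Dlk1 (-1.63) and Cdkn1c (-1.06). The last 3 rested on sub-clusters led by genes of another lineage, above all on 117 cells led by Col1a1 with 1097 CPM of Meg3, 575 of Dlk1 and 265 of Cdkn1c. An alternative chosen after seeing the data left out such sub-clusters and added basal-like and suprabasal-like cells to the other side. H19 then stood at -4.05, Meg3 at -0.02, Dlk1 at 0.13 and Cdkn1c at -0.14. In it 3 genes were at least 2-fold lower, H19, Igf2 (-1.27) and Plagl1 (-1.01), and the share of all genes was not counted. Igf2 and Plagl1 rested on 16 UMIs each in follicle-like cells, or 3.41 CPM, less than the 10 added. Dermal markers stood at 2.61% of the dermal-like level in follicle-like and 8.36% in the other epithelial-like cells, and their part was not tested. H19 in the 93 basal-like cells was above the dermal-like level of 677 CPM, whereas the dermal markers of basal-like epithelial cells stood at 2.64%.

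The 10 genes were set against 61 other imprinted genes, of which 51 were in the table. In dermal-like cells 2 of 45 measured were at least 2-fold lower and 1 higher at E16.5 (background 1.91% lower and 1.9% higher), with a median log2 difference of -0.19 against -0.33 for the members. At P0, 6 of 41 were at least 2-fold lower and 0 higher (background 2.67% lower and 1.86% higher), with medians of -0.23 and -1.03. The lower genes were led by Nnat, a membrane protein of neural and other fetal tissues, from 435 to 35.7 CPM (log2 -3.28), and Usp29 from 66.2 to 21.6 CPM (log2 -1.27) in the earlier step. Dcn, a proteoglycan of mature dermal matrix, went the other way, from 1029 to 2580.3 CPM (log2 1.32). Gatm was the next lowest at -0.85 on the log2 scale, and Cd81 and Tssc4 the next highest at 0.40 and 0.29. In the later step Kcnq1ot1, the antisense noncoding RNA of the Cdkn1c domain, went from 240.4 to 59.4 CPM (log2 -1.85), and Igf2r, the receptor that clears IGF2, from 75.2 to 19.6 CPM (log2 -1.52). Zdbf2 went from 22.0 to 3.07 CPM (log2 -1.29). The highest of the later step were Gatm, Blcap and Snrpn, with log2 differences of 0.51, 0.48 and 0.38.

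Neighbours in the same imprinted cluster did not all move with the members. In the Cdkn1c domain Kcnq1ot1 was 283, 240.4 and 59.4 CPM in the dermal-like group, in order of stage, whereas Cd81 was 766, 1011 and 1214 and Nap1l4 138, 88.3 and 73.9. Tssc4 was 65.5, 82.1 and 56.5 CPM and Phlda2 3.34, 2.97 and 0.313. In the Dlk1 and Meg3 domain Mirg was 43.5, 35.9 and 10.3 CPM and Rtl1 7.40, 6.46 and 0.251, although Meg3 differed little between E16.5 and P0. Dio3 was 4.80, 0.905 and 0.439 CPM. Beside Peg3, Zim1 was 39.4, 37.9 and 44.3 CPM and Usp29 66.2, 21.6 and 12.1. Beside Ndn, Snrpn was 21.5, 22.3 and 32.0 CPM and Ube3a 169.8, 161 and 78.6. Magel2 was 2.03, 2.81 and 0.439 CPM and Mkrn3 5.32, 2.78 and 2.38. Copg2, which overlaps Mest on the opposite strand, was 21.7, 18.0 and 14.2 CPM, and Klf14 6.10, 3.53 and 0.627. Igf2os, opposite to Igf2, was 2.76, 2.03 and 0.564 CPM. Slc22a18, Ascl2, Th, Ins2 and Cobl had fewer than 50 UMIs in dermal-like cells and are not compared.

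Of 28 genes of the IGF axis and fetal growth, 27 were in the table and 25 were measured in dermal-like cells in both steps. At E16.5, 5 were at least 2-fold lower and 2 higher, and at P0, 7 were lower and 3 higher, against the backgrounds given above. The median log2 difference was -0.32 and -0.23. Hmga2, a chromatin protein of fetal growth, went from 401 to 23.4 CPM (log2 -3.62) in the earlier step, and the binding proteins Igfbp4 and Igfbp2 from 531 to 130.4 CPM (log2 -1.95) and from 276 to 98.0 CPM (log2 -1.41). In the later step Igfbp5 went from 319.6 to 19.7 CPM (log2 -3.47) and Igf2bp1, an RNA-binding protein of Igf2 mRNA, from 36.0 to 8.21 CPM (log2 -1.34). Igfbp7 and Igfbp3 were higher at P0, from 38.9 to 303 CPM (log2 2.68) and from 56.2 to 279 CPM (log2 2.12). The cell cycle inhibitor Cdkn1a was higher at E16.5, with a log2 difference of 2.31, whereas its relative Cdkn1c did not differ beyond counting error. The protease Pappa2 stood at 0.55 in the earlier step and -1.28 in the later, and the proteoglycan Gpc3 at 1.02 in the later.

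Over 66 clusters of at least 50 cells, the genes most alike in level were often other members. The measure was Pearson's r of log2 levels among 11682 genes, the clusters share 3 libraries, and stage adds to every value. Meg3 was most like Ndn (0.94) and Dlk1 (0.90), Mest most like Grb10 (0.92), Plagl1 most like Mest (0.82), and H19 most like Igf2 (0.79). Igf2 was most like Kcnq1ot1 (0.90), Ubfd1 (0.89) and Igf2bp1 (0.87). Peg3 was most like Osr1 (0.95), Arhgap28 and Vcam1 (both 0.91), and Cdkn1c most like Mdk (0.89), Arf4 and Maged1 (both 0.86). Dlk1 was most like Bicc1 (0.91), Meg3 (0.90) and Prrx1 (0.88). The next genes were Arhgef25 (0.90) for Meg3, Plagl1 (0.75) and Cdon (0.71) for H19, Lpar4 (0.88) and Akap12 (0.87) for Mest, and Nrk and Igf2 (both 0.80) for Plagl1. Grb10 followed Mest with Tmsb10 (0.88) and Maged2 (0.87), and Ndn followed Meg3 with Arf4 and Praf2 (both 0.93). Within a stage, over 25, 19 and 22 clusters, r between Igf2 and H19 was 0.91 (E13.5), 0.85 (E16.5) and 0.81 (P0). For Dlk1 and Meg3 it was 0.87 (E13.5), 0.95 (E16.5) and 0.89 (P0), and for Mest and Grb10 0.79 (E13.5), 0.84 (E16.5) and 0.92 (P0). Over single dermal-like cells r was lower, for Igf2 and H19 0.52, 0.74 and 0.40 and for Dlk1 and Meg3 0.40, 0.61 and 0.38.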

How the data were processed

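Dorsal skin of 3 stages was measured with 1 library each. The authors aligned reads to mm10 and counted UMIs with Cell Ranger 2.2.0 (build and version from the submitters' processing notes). A minimum of 3 cells per gene and of 1750 genes per cell was set in Seurat. The deposited values are the natural log of 1 plus UMIs per 10000 UMIs of a cell. The formula was found from the values: all 48197283 values above 0 came back as whole UMIs within 0.001. The table held 16235 cells, more than the study counts after its filters, and 0 columns of another series.

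The libraries were clustered separately with scanpy 1.11.5 and leidenalg 0.10.2 (2000 variable genes without 61 imprinted genes, 30 principal components, 15 neighbours, resolution 1), under Python 3.11.15. A cluster was named from at least 3 markers with a log2 difference of at least 1 over the 25th percentile of clusters, and stayed unnamed where genes of another class led it. Dermal-like and epithelial-like cells were clustered again, and sub-clusters were named at a mean log2 difference of 1.5. Scrublet, at an expected rate of 0.06, called 84 cells at E16.5 and 106 at P0 as doublets, which were kept. It called 0 at E13.5, where the caller was taken to have failed. For shares of cells, each cell was thinned to 3500 UMIs, which left out 1 cell.

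Levels are summed UMIs in CPM with exact Poisson intervals, shares have exact binomial intervals at 95%, and UMIs, clusters and cells are not replicates. In simulated dermal-like data from each stage, 200 genes were changed, some of them 4-fold. Scored were only the 4-fold genes whose change stayed well past 2-fold after 10 was added to each CPM. These were 61, 62 and 68 genes at E13.5, E16.5 and P0. All were called with the right sign, an outcome that this choice largely fixed in advance. All 10 members are described. Of the lists of other genes, the 3 highest and 3 lowest of each dermal-like step and the neighbours of a member were named, with the 3 genes most alike for a member. Members, marker genes and gene lists were chosen with earlier results of these data known.

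The 13 alternatives changed the resolution, the naming reference, the minimum of genes per cell, doublets, cell weights, the CPM denominator, the number added, the fold, depth and which clusters and sub-clusters counted as a class, the last chosen after seeing the data. A lower minimum of UMIs was tried on the background counts alone.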

Additional observations from a re-analysis of the deposited data

Results flagged for a closer look

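Dlk1 and Cdkn1c were at least 2-fold higher at E16.5 than at E13.5 in muscle-like cells and at least 2-fold lower in others. Dlk1 was 889 CPM at E13.5 and 2627 at E16.5 in muscle-like cells, a log2 difference of 1.55 (95% interval 1.45 to 1.65) on 5451 and 1007 UMIs. In endothelial-like cells it was 693 and 169 CPM, a log2 difference of -1.97, and 5 of 8 cell groups were at least 2-fold lower. Dlk1 was also higher at E16.5, by less than 2-fold, in dermal-like cells (2392 and 2561 CPM) and erythroid-like cells (1357 and 1615 CPM). Cdkn1c was 5620.4 and 11668 CPM in muscle-like cells, a log2 difference of 1.05 (95% interval 1.01 to 1.10) on 34444 and 4472 UMIs. In immune-like cells it was 1199.6 and 165 CPM, a log2 difference of -2.79, and 5 of 8 groups were at least 2-fold lower. The difference between groups was not tested, since each stage has 1 library. The muscle-like group held 596 cells at E13.5 and 31 at E16.5. At E13.5 it was uneven, with clusters of 434 and 162 cells that held Cdkn1c at 4293 and 8634 CPM and Dlk1 at 971 and 704. The E16.5 cells formed a single cluster, and the part of a different mix of muscle-like cells was not tested.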

How the results depend on the processing

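Over 13 alternatives, 133 of 144 counts of members stayed within 1.5 times the reported count. Each member difference was counted again under every alternative that applied to it, so these counts are not of separate differences. Of 817 such comparisons with a reported difference past 2-fold, 774 stayed past it in the same direction and 1 changed sign. This was Cdkn1c in endothelial-like cells at P0 against E16.5, which was 0.0302 at resolution 0.5, in place of -1.18. There the endothelial-like group at P0 took in 196 cells that had been dermal-like. The endothelial-like count of lower genes at E16.5 was 3 at resolution 0.5 and 3 at resolution 1.5, in place of 5, since Peg3 and Ndn lay at the threshold. The immune-like count at P0 was 4 with cells of at least 2500 genes, 4 without called doublets and 3 after thinning, in place of 7. The count at E16.5 in all cells was 1 with each cell weighted equally, 1 after thinning and 5 with a fold of 1.5, in place of 0, and in dermal-like cells 4 with a fold of 1.5, in place of 1. The dermal-like count at P0 was 3, in place of 6, with clusters without a name put back and 3 without sub-clusters led by other lineages, both alternatives chosen after seeing the data. The cause of the other changes was not tested. No paired analysis was possible because each stage has 1 library, so no library could be left out either. Depth limits the P0 levels of Igf2 outside dermal-like, epithelial-like and endothelial-like cells, which rest on 6 to 17 UMIs.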

Other observations

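A cluster of preadipocyte-like cells stood apart at P0. In 45 preadipocyte-like cells Cdkn1c was 4937 CPM, against 744 in dermal-like cells (log2 2.71, 95% interval 2.66 to 2.77), and all 45 cells had a UMI after thinning. Dlk1, which is known as a marker of such precursors, was 1081 CPM, whereas Meg3 was 251 and H19 40.9. Dlk1 thus made up 81.2% of the Dlk1 and Meg3 UMIs there, against 35.6% in dermal-like cells. The dermal markers stood at 16.3% of the dermal-like level. A sub-cluster of 65 dermal-like cells named preadipocyte-like, led by Fabp4, did not stand apart in this way, with 1349 CPM of Cdkn1c, 3064 of Dlk1, 1623 of Meg3 and 1067 of H19.

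Cartilage or tendon-like cells were named at E13.5 and held Igf2 at 1811 CPM, H19 at 1769 and Grb10 at 385, each above the dermal-like level. Schwann-like cells, the glia of skin nerves, held Grb10 at 278, 253 and 131 CPM and Mest at 1111, 734 and 315 CPM at E13.5, E16.5 and P0. At P0 these were above the dermal-like levels of 68.8 and 206 CPM, whereas Igf2 rested on 6 UMIs. Melanocyte-like cells held Cdkn1c at 1017, 235 and 45.6 CPM and Plagl1 at 103, 70.3 and 41.1 CPM.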
